A study of Mus musculus with 4 samples.

Results

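The solute carriers are membrane transporters that move sugars, amino acids, ions, metals, nucleosides, vitamins and metabolites across the plasma membrane and the membranes of organelles. Genes of this family were taken as those whose symbol begins with Slc and a digit, with the probe set of highest average level standing for each gene, and a gene was kept when its log2 level reached 5 in any group. The array held 262 such genes, and 74 were kept, out of 5151 genes kept among all 12393 with a symbol. The genes were sorted by the substrate that their family is known to carry: 15 mitochondrial carriers of the Slc25 family, 14 metal ion transporters, 10 amino acid transporters, 9 nucleoside and nucleotide sugar transporters, 8 inorganic ion transporters, 6 sugar transporters, 4 lipid and choline transporters, 3 monocarboxylate and organic ion transporters, 2 vitamin transporters, 1 peptide transporter and Slc66a2. Slc9a3r1, which meets the symbol rule, encodes a scaffold protein that binds transporters and is not a carrier itself.

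Solute carriers work as uniporters, as symporters driven by an ion gradient, or as exchangers. In the arterial wall, smooth muscle cells take up glucose through facilitative carriers, amino acids through exchangers that also feed growth signalling, and phosphate through sodium-coupled carriers linked to calcification, while sodium, chloride and calcium carriers take part in setting contraction. Carriers of the Slc25 family span the inner mitochondrial membrane and exchange phosphate, nucleotides and metabolites with the cytosol, with a few members in other membranes.

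The tissue was aorta from female mice on the C57BL/6 background, 12 to 14 weeks old, whose ovaries had been removed 1 week earlier. Wild-type (WT) mice were set against disrupting peptide mice (DPM), whose transgene, driven by the CMV promoter and so not limited to a cell type, makes residues 176 to 253 of estrogen receptor alpha and keeps the receptor from binding striatin, a scaffold for its rapid signalling to kinases. Aortas of both genotypes spent 4 h outside the body in 10 nM estradiol (E2) or in its vehicle, ethanol, and each sample pooled 4 aortas. The values are 1 log2 level per group, from 1 type of Affymetrix mouse expression array. The sample titles name 3 replicates for each vehicle group and 2 for each E2 group. Whether these were separate pools of aortas is not stated in the labels, so the p-values measure the spread between those replicates, which may be technical. The spread itself enters below as the standard error (SE) of each difference, recovered from the authors' deposited differences and p-values. Whether single replicates of the groups overlap could not be seen, since each group is given as 1 level.

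Smooth muscle markers were high in all 4 groups, with Acta2 between 13.92 and 14.05 and Myh11 between 13.05 and 13.16. Markers of other tissues did not stand level across the groups. The log2 of the summed levels of 12 cardiac muscle markers (10 kept) was 7.29 in WT vehicle and 7.13 in WT E2. In DPM vehicle it was 10.27 and in DPM E2 7.52. The 7 airway markers (4 kept) stood at 5.13, 5.13, 8.03 and 6.21 in the same order. Such sums run over all markers of a list on the array, kept or not. Mesothelial markers stood at 8.04, 8.13, 8.24 and 8.88, and macrophage and leukocyte markers at 9.41, 9.38, 9.40 and 9.71, both highest in DPM E2. The DPM vehicle group thus stands highest in cardiac and airway markers and DPM E2 in mesothelial ones. These rises are not confined to 1 DPM group. With E2, DPM stood above WT in 8 of 10 kept cardiac markers (median 0.49) and in 4 of 4 airway markers (median 1.36). In vehicle it did so in 3 of 4 mesothelial markers (median 0.69), beside 4 of 4 with E2 (median 0.79). These markers thus differ between the genotypes as well. Both DPM groups enter the DPM response, the difference between the responses and both averaged effects. Endothelial markers summed to 9.86, 10.21, 10.10 and 9.92, and adipocyte markers to 14.05, 14.04, 13.86 and 14.08. The part of these markers in the results on solute carriers was not tested. The 1 probe set for Esr1 lay between 2.31 and 2.33 in all groups, near the lowest level on the array of 2.29, and its position relative to the transgene was not analysed here. In whole aorta, fewer cells of a type and less RNA per cell cannot be told apart.

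Of the 262 solute carriers 28.2% passed the level minimum, beside 41.6% of all 12393 genes. Of the 188 below it, 84 sat at the floor of the array (within 0.05 of its lowest level) in every group and 104 lay between. The kept share was 15 of 33 for the Slc25 family and 14 of 27 for metal ion transporters, and 3 of 35 for monocarboxylate and organic ion transporters. No carrier of neurotransmitters was kept out of 9. Slc8a1, the sodium-calcium exchanger, reached at most 2.54, and Slc40a1, the iron exporter ferroportin, at most 2.57. Slc30a1, the zinc exporter of the plasma membrane, lay between 3.75 and 3.98, and Slc20a2, a sodium-phosphate carrier, between 4.79 and 4.84. These levels say that the probe sets were dim, which need not mean that the genes were silent.

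The minimum was met in all 4 groups by 66 genes and in fewer by 8. Slc5a2 and Slc35a5 met it in DPM vehicle alone and Slc27a1 in DPM E2 alone, so a difference between groups is built into their choice. Just inside the minimum stood Slc27a1 and Slc35b3, with a highest level of 5.08 each, and Slc39a9 at 5.17. Just outside stood Slc25a25 at 4.95 and Slc20a2 at 4.84.

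Before the values, the sequences around the transcription start are printed for the genes that stood together lower in DPM, and for Slc16a1, which had the smallest p of the averaged E2 effects. They are RefSeq promoters on GRCm38.p6, 250 bases before to 50 bases after the start, read 5′ to 3′ along the gene. Capitals mark matches on either strand to ACGTG, the core of the hypoxia response element, or to TGCNCNC, the core of the metal response element. Slc24a3 has 2 such promoters in the table, and the first is shown. Slc6a6 belongs to the same set.
Slc2a1 promoter, chr4:119108495-119108794 (plus strand): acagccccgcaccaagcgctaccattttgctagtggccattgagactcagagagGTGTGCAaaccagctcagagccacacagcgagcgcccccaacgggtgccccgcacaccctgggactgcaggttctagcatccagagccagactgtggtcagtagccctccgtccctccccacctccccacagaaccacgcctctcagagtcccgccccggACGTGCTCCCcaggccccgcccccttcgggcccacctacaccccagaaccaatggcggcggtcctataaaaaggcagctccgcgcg
Slc2a10 promoter, chr2:165503647-165503946 (plus strand): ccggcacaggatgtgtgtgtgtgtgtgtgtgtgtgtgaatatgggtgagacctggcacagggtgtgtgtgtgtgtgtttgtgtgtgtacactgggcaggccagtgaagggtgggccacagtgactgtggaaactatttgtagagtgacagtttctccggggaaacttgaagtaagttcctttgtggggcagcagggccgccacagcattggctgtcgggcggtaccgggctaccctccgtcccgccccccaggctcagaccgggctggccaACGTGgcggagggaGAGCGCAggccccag
Slc24a3 promoter, chr2:145167525-145167824 (plus strand): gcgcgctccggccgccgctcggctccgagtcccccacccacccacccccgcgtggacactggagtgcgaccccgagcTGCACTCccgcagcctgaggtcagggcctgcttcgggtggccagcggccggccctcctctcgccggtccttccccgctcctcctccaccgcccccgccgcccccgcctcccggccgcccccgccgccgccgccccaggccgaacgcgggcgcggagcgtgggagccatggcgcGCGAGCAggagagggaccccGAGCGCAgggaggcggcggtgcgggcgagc
Slc22a5 promoter, chr11:53891654-53891953 (minus strand): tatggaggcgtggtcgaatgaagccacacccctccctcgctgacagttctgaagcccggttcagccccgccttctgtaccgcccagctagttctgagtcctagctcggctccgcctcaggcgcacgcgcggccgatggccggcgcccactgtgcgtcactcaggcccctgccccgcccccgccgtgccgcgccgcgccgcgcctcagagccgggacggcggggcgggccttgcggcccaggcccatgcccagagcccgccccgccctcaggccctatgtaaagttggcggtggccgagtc
Slc16a1 promoter, chr3:104638414-104638713 (plus strand): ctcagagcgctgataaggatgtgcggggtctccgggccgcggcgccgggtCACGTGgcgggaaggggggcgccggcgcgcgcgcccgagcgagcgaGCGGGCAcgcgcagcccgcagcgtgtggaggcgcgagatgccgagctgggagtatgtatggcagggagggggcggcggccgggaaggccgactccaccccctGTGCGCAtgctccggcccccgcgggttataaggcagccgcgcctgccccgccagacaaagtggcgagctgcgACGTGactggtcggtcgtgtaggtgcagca
The Slc2a1 window holds 1 match to ACGTG and 2 to TGCNCNC, and 1 of the latter overlaps the former. Slc2a10 holds 1 of each, Slc24a3 holds 3 matches to TGCNCNC, and Slc22a5 holds none of either. Slc16a1 holds 3 matches to ACGTG, of which 2 are the palindrome CACGTG read on both strands, and 2 to TGCNCNC. None of these 5 windows holds the palindromic estrogen response element, TGANTCA (AP-1), TGACGTCA (the cyclic AMP response element) or TGATGNAAT (an amino acid response element). Over the family, 56 of the 74 genes matched 82 windows, and ACGTG stood in 32.9% of them against 19.6% of all 32851 windows. TGCNCNC stood in 61.0% against 51.0%, and TGANTCA in 2.44% against 7.81%. The palindromic estrogen response element stood in 0 of the 82 and in 0.0700% of all windows. These shares describe letters only.

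The response of WT aorta to E2 asks what estradiol does to transporter genes while the receptor can bind striatin. Few solute carriers differed at an unadjusted p under 0.05: 2 of 74, or 2.7%, against 6.79% of all genes kept. With Benjamini-Hochberg adjustment over all 5151 genes, 0 solute carriers passed (0% of all genes did), and 0 differed by 1.5-fold (2.29% of all genes did). By direction 40 stood higher with E2 and 34 lower, and their median of 0.02 lay beside 0.01 for all genes. With a level minimum of 4 in place of 5 that share was 7.14% of 98 solute carriers, beside 6.51% of all genes.

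Slc20a1 encodes a sodium-phosphate carrier of the plasma membrane that vascular smooth muscle uses to take up phosphate. Its log2 level was 7.69 in WT vehicle, 7.92 in WT E2, 7.98 in DPM vehicle and 7.83 in DPM E2. In the authors' deposited table E2 stood above vehicle in WT by 0.23 ± 0.07 (SE, limma p = 0.0205, adjusted p = 0.603). WT vehicle is the low group of the 4, and DPM vehicle is the high one. Slc39a14, a carrier of zinc and of iron not bound to transferrin, went the other way. It stood at 8.23 in WT vehicle and at 7.96, 7.98 and 7.98 in the other groups. The WT difference in the authors' deposited table was -0.27 ± 0.10 (SE, limma p = 0.036), while the DPM difference was 0.00 ± 0.14.

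Among amino acid carriers 6 of 10 stood lower with E2 in WT, with a median of -0.07. Slc1a4, a neutral amino acid exchanger, had the largest negative difference, with 7.82 in vehicle, 7.29 with E2 and a difference of -0.53 ± 0.25. Slc3a2, the heavy chain that brings amino acid exchangers to the cell surface, stood at 10.61 and 10.38. Its difference in the authors' deposited table was -0.23 ± 0.10 (SE, limma p = 0.0624). Slc7a5, the light chain that pairs with it to import large neutral amino acids, pointed up, with 9.53 and 9.73 and a difference of 0.20 ± 0.19. None of the 3 met an unadjusted p of 0.05. Beside them, 14 of 17 kept genes of the amino acid response, the programme that cells run when amino acids are short, stood lower with E2 in WT, with a median of -0.22, where 48.2% of all genes stood lower. In DPM 12 of the 17 stood higher, with a median of 0.09, where 65.9% of all genes did. Of the 17 in WT, Mthfd2, a mitochondrial folate enzyme, was lower and Vldlr, a lipoprotein receptor, was higher at an unadjusted p under 0.05, and 0 passed after adjustment.

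The largest positive difference in WT was that of Slc29a1, the equilibrative carrier that takes adenosine and other nucleosides into cells. Its level was 6.89 in vehicle and 7.42 with E2, and the authors' deposited table gives 0.53 ± 0.26 (SE, limma p = 0.0878). Both vitamin carriers pointed down: Slc23a2, which imports vitamin C, by -0.41 ± 0.18 and Slc19a2, which imports thiamine, by -0.25 ± 0.22. Inorganic ion carriers pointed up in 6 of 8, with a median of 0.10. Slc12a2, the sodium-potassium-chloride carrier that loads smooth muscle with chloride, stood at 6.53 and 6.66, a difference of 0.13 ± 0.15.

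**Figure D1:**
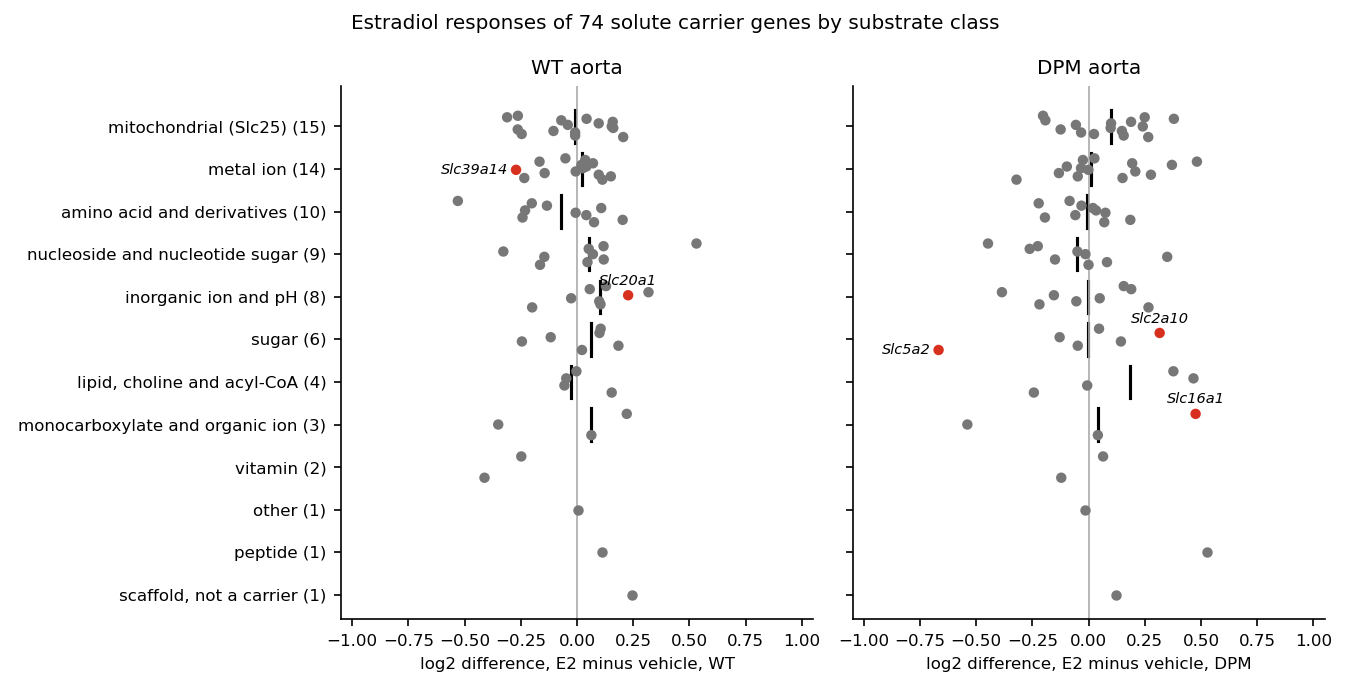
Log2 difference between E2 and vehicle for each of the 74 solute carrier genes (points), by substrate class with the number of genes in brackets, in WT (left) and DPM (right). Black bars are medians of classes with more than 2 genes, and red points have an unadjusted p under 0.05. In both panels most points lie close to 0, and the red ones are 2 genes in WT and 3 other genes in DPM.

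The response of DPM aorta asks what estradiol does while the peptide keeps the receptor from striatin. Again few solute carriers stood out: 3 of 74, or 4.05%, had an unadjusted p under 0.05 against 5.2% of all genes kept. After adjustment 0 solute carriers passed, beside 0.0194% of all genes, and 1 differed by 1.5-fold, beside 3.94%. By direction 38 stood higher and 36 lower, with a median of 0.02 beside 0.08 for all genes. Set relative to that shift of all genes, 27 stood higher and 47 lower, with a median of -0.06. On that scale the genes at an unadjusted p under 0.05 were Slc5a2, Slc35e4 and Slc25a3, all 3 lower, and Slc16a1 and Slc2a10 were no longer among them.

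Slc16a1, the carrier that moves lactate, pyruvate and ketone bodies with a proton, had a level of 8.45 in DPM vehicle and 8.93 with E2. The authors' deposited table gives a DPM difference of 0.48 ± 0.18 (SE, limma p = 0.0385, adjusted p = 0.916). In WT its levels were 8.61 and 8.83, so both E2 groups stood above both vehicle groups. Slc16a3, the related carrier that exports lactate from glycolytic cells, pointed down in both genotypes, with levels of 8.72, 8.37, 8.44 and 7.90 in the order used above. Its differences were -0.35 ± 0.26 in WT and -0.54 ± 0.35 in DPM, neither past an unadjusted p of 0.05.

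Slc2a10, a facilitative sugar carrier whose loss in humans causes arterial tortuosity, had levels of 6.11, 6.21, 5.72 and 6.03. Its DPM difference in the authors' deposited table was 0.32 ± 0.13 (SE, limma p = 0.0486). DPM vehicle is the low group of the 4. Slc5a2, the sodium-glucose carrier known from the kidney tubule, had levels of 4.80, 4.82, 5.20 and 4.53. The authors' deposited table gives -0.67 ± 0.21 in DPM (SE, limma p = 0.0177, adjusted p = 0.853), the only difference of 1.5-fold in this comparison. The gene was kept through DPM vehicle alone, the group with the highest cardiac and airway markers. Its other probe set, between 2.36 and 2.54, had a DPM difference of 0.15. Slc15a4, a lysosomal carrier of histidine and short peptides, had the largest positive difference, 0.53 ± 0.27, with 5.44 in vehicle and 5.97 with E2.

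The difference between both responses asks whether the peptide alters the action of E2 on a gene. Of the 74 genes, 3, or 4.05%, had an unadjusted p under 0.05, against 4.19% of all genes kept, and 0 passed adjustment (0.0194% of all genes). All 3 were lower in DPM than in WT, where 1.03% of all genes stood at that p, or 1.86% relative to the median of all genes. The 3 include Slc5a2, which was kept through DPM vehicle alone, so its direction is built into its choice. A 1.5-fold difference was met by 4, or 5.41%, against 6.91% of all genes. The response of DPM exceeded that of WT in 42 genes and was below it in 32, with a median of 0.04 beside 0.07 for all genes. Relative to the shift of all genes the split was 33 and 41, with a median of -0.03.

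Slc20a1 was 1 of the 3. E2 stood above vehicle by 0.23 in WT and differed from it by -0.15 ± 0.10 in DPM, and the authors' deposited table gives a difference between the responses of -0.38 ± 0.12 (SE, limma p = 0.0198, adjusted p = 0.989). The other Slc20a1 probe set, between 2.58 and 2.81, lay near the lowest level of the array, and a mean over both probe sets gave -0.15 for this difference and 0.05 for the WT response. Both vehicle groups lie farther apart, at 7.69 and 7.98, than both E2 groups, at 7.92 and 7.83. Slc5a2 followed, with -0.69 ± 0.26 (SE, limma p = 0.0374) in the authors' deposited table, through its high level in DPM vehicle. Slc35e4, placed by family among nucleotide sugar carriers, had levels of 6.83, 6.95, 6.99 and 6.84. Its difference between the responses in the authors' deposited table was -0.27 ± 0.11 (SE, limma p = 0.0432). A dimmer Slc35e4 probe set, between 4.45 and 4.66, had a difference of -0.31. The brighter probe set is of a type that can also bind other transcripts of similar sequence, so its levels may hold other genes as well.

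Slc29a1 had the largest difference of the family but not the smallest error. Its levels were 6.89, 7.42, 7.18 and 6.73, so E2 groups are the high and the low one. The difference between the responses in the authors' deposited table was -0.98 ± 0.44 (SE, limma p = 0.0646), 1.97-fold in size. Slc29a1 is expressed by endothelium among other cells. Endothelial markers pointed the same way: their median difference between the responses was -0.48 over 10 kept markers, 8 of them lower. The part of endothelial RNA in the value was not tested. Slc12a7, a potassium-chloride carrier, had levels of 4.93, 5.25, 5.08 and 4.69. The authors' deposited table gives it -0.70 ± 0.32 (SE, limma p = 0.0694). It met the level minimum in WT E2 and DPM vehicle alone, the groups that make this difference negative. Slc30a5, which loads zinc into the early secretory pathway, was the 1 gene with a 1.5-fold difference upward. Its levels were 6.32, 6.15, 5.84 and 6.32, with DPM vehicle the low group, and the authors' deposited table gives 0.65 ± 0.34 (SE, limma p = 0.104).

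**Figure D2:**
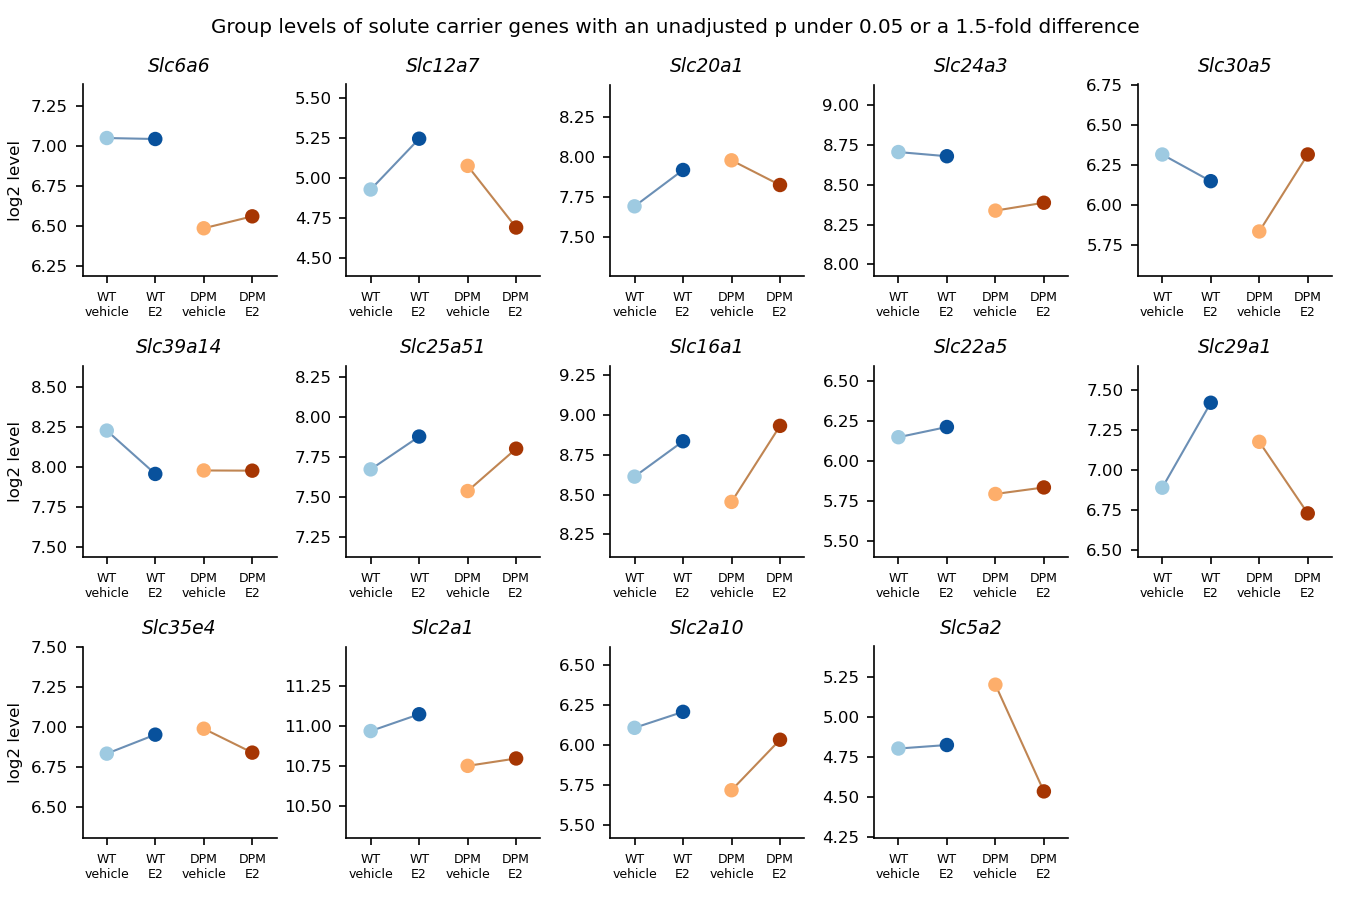
Log2 level of the 14 solute carrier genes with an unadjusted p under 0.05 or a 1.5-fold difference in any comparison, as 1 deposited level per group; the axes span an equal log2 range around each gene. Slc6a6, Slc24a3, Slc22a5, Slc2a1 and Slc2a10 show both DPM groups below both WT groups. Lines of opposite slope are seen, among others, in Slc20a1, Slc29a1, Slc12a7, Slc30a5, Slc35e4 and Slc5a2.

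Averaging the E2 effect over both genotypes lowers its error and asks what E2 does in either. Here 4 of 74 genes, or 5.41%, had an unadjusted p under 0.05 against 7.71% of all genes, 0 passed adjustment (0.0388% of all genes), and 0 differed by 1.5-fold (1.28% of all genes). By direction 38 stood higher and 36 lower, or 30 and 44 relative to the shift of all genes. On the latter scale Slc16a1, Slc5a2 and Slc25a3 were at an unadjusted p under 0.05, the last with -0.09 ± 0.03. On the deposited scale Slc16a1 had the smallest p, with an averaged difference of 0.35 ± 0.11 (SE, limma-type adjusted p = 0.536), or 1.27-fold. The p-values of both averaged effects were computed here from recovered errors and are not the authors' own. Slc25a51, which brings NAD+ into mitochondria, stood at 7.67, 7.88, 7.54 and 7.80. Its averaged difference was 0.24 ± 0.09 (SE, limma-type adjusted p = 0.574), and both E2 groups lie above both vehicle groups. A second bright Slc25a51 probe set gave 0.09, with 7.11 and 7.03 in WT and 6.83 and 7.10 in DPM, so the probe sets differ in the WT response. Slc2a10 gave 0.21 ± 0.08 (SE, limma-type adjusted p = 0.609) and Slc5a2 gave -0.32 ± 0.13 (SE, limma-type adjusted p = 0.644), each mainly through DPM. Slc12a2, with 0.14 ± 0.13 at its brightest probe set, gave 0.32 and 0.36 at the other 2.

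Averaging the difference between genotypes over both treatments asks what the peptide does with or without E2. Of 74 genes 5, or 6.76%, had an unadjusted p under 0.05, against 5.79% of all genes, a share near the background. All 5 were lower in DPM, where 2.43% of all genes stood lower at that p. After adjustment 0 solute carriers passed (0% of all genes), and 0 differed by 1.5-fold (1.2% of all genes). Of the family 41 genes stood higher in DPM and 33 lower, with a median of 0.02 beside 0.00 for all genes.

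Slc2a1, the carrier of basal glucose uptake in most cells, was among the 5. Its levels were 10.97 in WT vehicle, 11.07 in WT E2, 10.75 in DPM vehicle and 10.80 in DPM E2, so both DPM groups lay below both WT groups. The averaged difference was -0.25 ± 0.07 (SE, limma-type adjusted p = 0.718). The array holds 3 Slc2a1 probe sets, and the others gave -0.25 ± 0.04 (SE, limma-type adjusted p = 0.402 over all probe sets) and -0.34 ± 0.06 (SE, limma-type adjusted p = 0.527). At each of the 3 probe sets both DPM groups stood below both WT groups, while the E2 responses were small and of mixed sign.

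**Figure D3:**
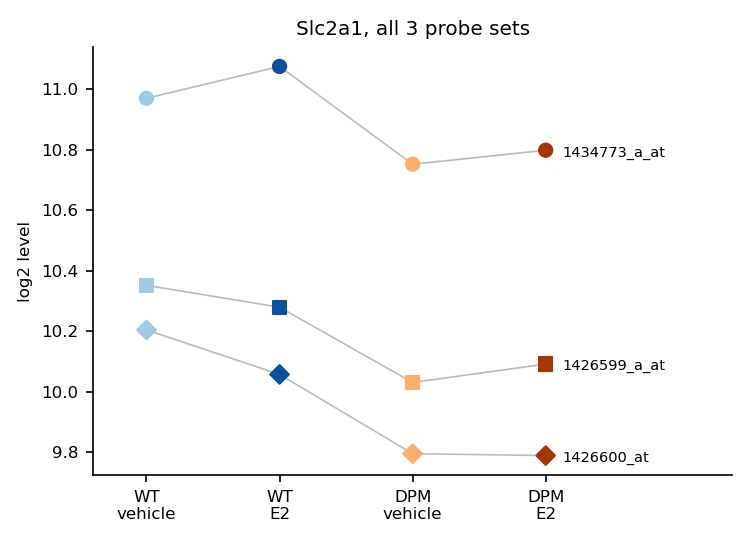
Log2 level of the 3 Slc2a1 probe sets (markers, named at the right) in the 4 groups, 1 deposited level per group. At each probe set the DPM levels lie below the WT levels; heights of different probe sets cannot be compared with each other.

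Slc2a10, the other sugar carrier of the 5, had an averaged difference of -0.28 ± 0.08 (SE, limma-type adjusted p = 0.718). Of this, -0.39 was found in vehicle and -0.17 with E2. Its second probe set, at 5.48, 5.59, 5.53 and 5.59, gave 0.02, so its probe sets do not give the same picture. None of the remaining sugar carriers met an unadjusted p of 0.05 for the genotype. Slc2a3, a glucose carrier of high affinity, gave 0.01 ± 0.24, and Slc2a4, the insulin-sensitive glucose carrier, gave -0.11 ± 0.22. Slc45a3 pointed the other way from Slc2a1 and Slc2a10, with 0.15, the largest upward difference of the class.

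Slc6a6 takes up taurine, an osmolyte abundant in muscle. Its levels were 7.05, 7.05, 6.49 and 6.56, and its averaged difference of -0.52 ± 0.16 (SE, limma-type adjusted p = 0.767) was the largest of the family, 1.44-fold. The difference was -0.56 in vehicle and -0.48 with E2. Slc24a3, a plasma membrane exchanger of sodium for calcium and potassium, had levels of 8.70, 8.68, 8.34 and 8.39. Its averaged difference was -0.33 ± 0.11 (SE, limma-type adjusted p = 0.784), with -0.37 in vehicle and -0.29 with E2. Slc22a5, which imports carnitine for the burning of fatty acids, had levels of 6.15, 6.21, 5.79 and 5.83. Its averaged difference was -0.37 ± 0.13 (SE, limma-type adjusted p = 0.827), with -0.36 and -0.38 within the treatments. All 3 genes stood lower in both DPM groups, and neither genotype showed an E2 difference beyond its error. The other Slc6a6 and Slc22a5 probe sets lay at 3.12 or lower, and Slc24a3 had 1 probe set.

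Within a single treatment no test of the genotypes was used here. In vehicle 0 solute carriers differed by 1.5-fold, against 3.24% of all genes. With E2 there was 1, or 1.35%, against 2.17%: Slc29a1 at -0.69, whose error is at most 0.44. Slc12a7 came close with -0.56 and an error of at most 0.32. It met the level minimum in WT E2 and not in DPM E2, so this difference is not independent of its choice. Endothelial markers, too, were lower in DPM E2 than in WT E2, with a median of -0.34 and 9 of 10 lower, and their part was not tested.

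**Figure D4:**
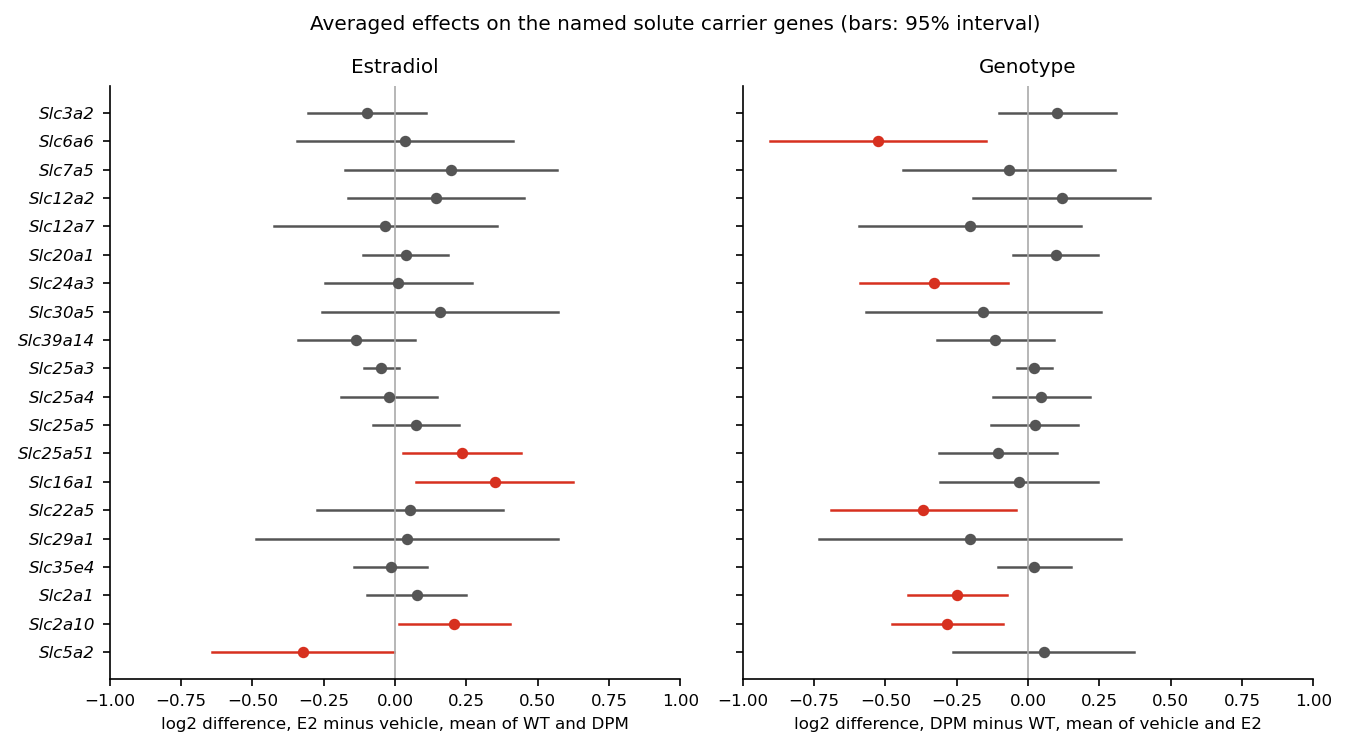
Averaged log2 differences of 20 named solute carrier genes, E2 minus vehicle over both genotypes (left) and DPM minus WT over both treatments (right), with 95% intervals; red marks an unadjusted p under 0.05. On the right the 5 red genes all lie below 0, and on the left 3 red genes lie above and 1 below.

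The 15 Slc25 genes make up the largest class, and none of them had an unadjusted p under 0.05 in the response of either genotype on the deposited scale. In WT 6 stood higher and 9 lower with E2, with a median of -0.01, and in DPM 10 stood higher and 5 lower, with a median of 0.10 beside 0.08 for all genes. Slc25a3, the mitochondrial phosphate carrier, had the smallest errors of the family. Its levels were 10.80, 10.76, 10.83 and 10.77, with an E2 difference of -0.04 ± 0.03 in WT and -0.06 ± 0.04 in DPM. Relative to the median of all genes the DPM value was -0.14 ± 0.04, which met an unadjusted p of 0.05. Slc25a4 and Slc25a5 exchange ADP and ATP, and lay between 10.32 and 10.39 and between 10.31 and 10.46. Their probe sets are of a type that can also bind other transcripts of similar sequence, so these levels may hold more than 1 gene. The genotypes differed by 0.05 ± 0.07 in Slc25a4 and 0.02 ± 0.06 in Slc25a5.

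The sign of the response was the same in WT and DPM for 11 of the 15 Slc25 genes, or 73.3%, with a Pearson correlation of 0.48 across the genes. Over all 74 solute carriers 38 had the same sign, with a correlation of 0.03, and over all genes 52.9% did, with 0.13. Genes measured on the same arrays are not independent, so these are descriptions. The genes that pointed up in both genotypes included Slc25a33 and Slc25a36, which carry pyrimidine nucleotides, with 0.15 ± 0.10 and 0.16 ± 0.18 in WT and 0.24 ± 0.14 and 0.10 ± 0.25 in DPM. Slc25a23, the carrier that swaps ATP-Mg for phosphate, gave 0.16 ± 0.13 and 0.19 ± 0.17. Down in both were Slc25a11, the oxoglutarate carrier, with -0.26 ± 0.15 and -0.20 ± 0.20, and Slc25a37, which imports iron for haem, with -0.26 ± 0.18 and -0.12 ± 0.23. Slc25a11 met the level minimum in the vehicle groups alone, so its downward signs, which count among the 11, are built into its choice. Slc25a20, which brings acylcarnitines into mitochondria, gave 0.04 ± 0.29 in WT and 0.38 ± 0.38 in DPM. The peroxisomal member Slc25a17 gave -0.31 ± 0.21 and 0.25 ± 0.28, and it met the level minimum in WT vehicle and DPM E2 alone, so these opposite signs are built into its choice. Slc25a46, a protein of the outer membrane that acts in mitochondrial fusion and fission, stood lower in DPM by an averaged difference of -0.26 ± 0.13.

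**Figure D5:**
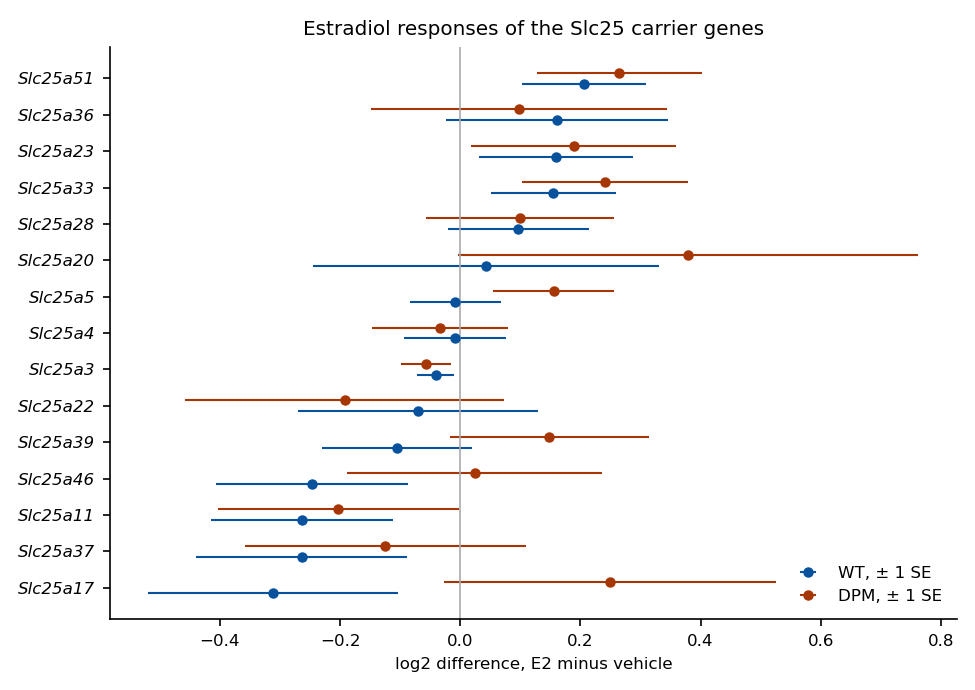
Log2 difference between E2 and vehicle for the 15 Slc25 genes in WT (blue) and DPM (brown), with bars of 1 SE, ordered by the WT value. Slc25a51 tops the list in WT at 0.21, Slc25a17 ends it at -0.31, and 11 of the 15 genes have points on the same side of 0.

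Zinc carriers of both directions are among the metal ion genes: Slc30 members move zinc out of the cytosol and Slc39 members move it in. In DPM 7 of the 14 metal genes stood higher with E2 and 7 lower, with a median of 0.01, and the Slc30 members other than Slc30a4 pointed up. Slc30a9 gave 0.37 ± 0.20 and Slc30a7 gave 0.19 ± 0.25, with DPM vehicle the low group for the former, at 5.23. Slc39a1, an importer of the plasma membrane, had levels of 9.82, 9.86, 10.07 and 9.97 and an averaged genotype difference of 0.19 ± 0.08. Slc39a7, which releases zinc from the endoplasmic reticulum, gave averaged differences of -0.14 ± 0.10 for E2 and -0.17 ± 0.10 for the genotype. Slc41a1, a magnesium carrier, gave 0.15 ± 0.09 in WT and -0.05 ± 0.12 in DPM. Of 11 kept genes of the metal response, 9 pointed up with E2 in DPM, and their median was 0.14, where 65.9% of all genes pointed up; relative to the median of all genes it was 0.06. In WT 6 pointed up and 5 down. Of these Fth1, the ferritin heavy chain, gave 0.27 in DPM at a limma p of 0.0477 in the authors' deposited table.

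In the remaining classes no gene met an unadjusted p of 0.05 in any of the 5 comparisons with a test. Both fatty acid carriers pointed up in DPM, Slc27a4 by 0.47 ± 0.22 and Slc27a1 by 0.38 ± 0.24, and both lay within their error in WT. Slc27a1 met the level minimum in DPM E2 alone, so its upward direction is built into its choice. The choline carriers Slc44a1 and Slc44a2 gave -0.01 ± 0.21 and -0.24 ± 0.32 in DPM. The Slc44a2 probe set, too, is of the type that can also bind other transcripts of similar sequence. Slc66a2 had an averaged genotype difference of 0.17 ± 0.11, and the scaffold Slc9a3r1 gave 0.24 ± 0.15 in WT and 0.12 ± 0.19 in DPM.

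Transporters outside the family were set beside it: 24 of 46 ABC transporters, ion pumps, organic anion carriers and mitochondrial carriers without an Slc symbol were kept. In WT 14 pointed up and 10 down with E2, and in DPM 11 and 13. At an unadjusted p under 0.05 there were 1 of 24 in WT and 3 of 24 in DPM, beside 6.79% and 5.2% of all genes. For the difference between the responses there were 3 of 24, beside 4.19%. All of these were higher, the direction in which the genes as a whole were shifted in the last 2 comparisons. The averaged E2 effect had 4 higher and 1 lower, beside 7.71% of all genes in either direction. The averaged genotype effect had 1 higher and 1 lower, beside 5.79%. After adjustment 0 passed in these 5 comparisons. Mpc1, a subunit of the mitochondrial pyruvate carrier, gave 0.61 in DPM at a limma p of 0.0271 in the authors' deposited table. Mtch2, an outer membrane relative of the Slc25 family, gave 0.29 in DPM at a limma p of 0.00108 in the same table. Atp1b3, a beta subunit of the sodium pump, gave 0.39 in WT at a limma p of 0.028 in the authors' deposited table.

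The size of difference that could be seen sets the limit of these comparisons. For the median solute carrier the SE was 0.16 in WT, 0.22 in DPM, 0.27 for the difference between the responses and 0.14 for the averaged effects. A difference had to reach 1.31-fold, 1.44-fold, 1.57-fold and 1.25-fold for an unadjusted p of 0.05. These sizes hold for the median gene, and genes with smaller errors, such as Slc20a1, Slc39a14 and Slc2a1, met that p with smaller differences. A p above the threshold does not show that groups were alike. Another probe set at level 5 or above was found for 21 of the 74 genes. Of the 34 such probe sets 27 had the same sign as the one used for the averaged genotype difference, 23 for the averaged E2 difference and 21 for the WT response.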

How the data were processed

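Gene expression was measured in pools of mouse aorta on Affymetrix mouse expression arrays, and the sample titles name 10 replicates in 4 groups. The deposited group levels are log2 values; GCRMA and limma are named per the submitters' processing notes, without versions or parameters. Per the file headers, the authors' deposited table gives the 4 levels, 3 log2 differences and a p-value for each; these p-values proved to be unadjusted limma p-values. Separate arrays were not analysed here, and the precision is limited by their number.

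Of 22690 probe sets, 64 were controls, 20380 had 1 gene symbol, 691 several and 1555 none; only those with 1 symbol were used, through the array's annotation and a RefSeq gene table on GRCm38.p6. Each symbol was represented by its brightest probe set on average, and a log2 level of 5 in any group was required. Standard errors were recovered from difference and p-value at 6.44 total degrees of freedom, the value at which the errors of the 3 contrasts kept 1 ratio over 2210 probe sets. In DPM the error of the response was larger than in WT by a factor of 1.33, although the titles name the same numbers of replicates for both. The squared error of the difference between the responses equalled the sum of their squares, as for independent groups. The averaged E2 and genotype effects were tested with a limma-type moderated statistic on the error of the difference between the responses divided by 2. For the genotypes within a treatment the error of the difference between the responses is an upper bound. Benjamini-Hochberg adjustment ran over all 5151 genes kept with a threshold of 0.05, and unadjusted p-values under 0.05 and differences of 1.5-fold were counted beside it. Medians and counts of a class stand beside those of all genes, with no set test. Intervals are 95%.

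Genes are named where an unadjusted p was under 0.05 or a difference reached 1.5-fold in any of 7 comparisons, with a set of carriers named always (Slc2a1, Slc3a2, Slc7a5, Slc8a1, Slc12a2, Slc16a1, Slc20a1, Slc20a2, Slc25a3, Slc25a4, Slc25a5, Slc30a1, Slc39a14 and Slc40a1). Other genes that are named were chosen after their values were seen. The members, classes and lists were chosen with earlier results of these data known. The computation used Python 3.11.15 with pandas 2.3.3, numpy 2.4.6 and scipy 1.17.1, and was tested on simulated data. Alternatives were centring, quantile normalization, other level minimums, other ways to pick probe sets and other thresholds.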

Additional observations from a re-analysis of the deposited data

How the results depend on the processing

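No paired analysis was possible because each group is given as 1 level, and for the same reason no replicate could be left out. No single gene that met an unadjusted p of 0.05 or 1.5-fold turned its direction, and counts at an adjusted p stayed at 0 under each alternative that gave one. The family's median did turn when levels were centred on the median of all genes, to -0.06 in the DPM response, -0.03 for the difference between the responses and -0.03 for the averaged E2 effect. For DPM minus WT it turned from -0.02 to 0.01 in vehicle and from 0.04 to -0.002 with E2. Centring also exchanged genes: at an unadjusted p under 0.05 Slc16a1 (0.39) and Slc2a10 (0.23) left the DPM response and Slc25a3 (-0.14) and Slc35e4 (-0.23) entered it, while Slc25a51 (0.19) and Slc2a10 (0.17) left the averaged E2 effect and Slc25a3 (-0.09) entered. Quantile normalization gave the same exits; Slc35e4 and Slc25a3 entered the same comparisons, apart from Slc25a3 in DPM, and Slc3a2 entered in WT and Slc39a1 for the genotype. At 1.5-fold centring gave 2 in DPM and 2 for the genotypes with E2, and quantile normalization 2 in DPM. A level minimum of 4 gave 7 of 98 at an unadjusted p under 0.05 in WT (all genes 6.51%) and 5 for the difference (4.15%). With no minimum, of 262, these were 10 in WT (3.95%), 5 in DPM (3.29%), 6 for the difference (2.81%) and 9 for the genotype (3.47%). A minimum of 6 left 0 of 53 at 1.5-fold in DPM (3.33%) and 2 for the difference (5.23%), and the mean of all probe sets left 2 of 60 for the difference (6.32%). That mean also took Slc20a1 to 0.05 in WT and -0.15 for the difference, Slc25a51 to 0.01, and Slc2a10 to 0.19 in DPM and -0.13 for the genotype. A 1.3-fold threshold gave 3 in WT (7.4%), 9 in DPM (12.9%), 16 for the difference (18.2%), 1 for the averaged E2 effect (4.91%), 1 for the genotype (4%), 7 for the genotypes in vehicle (10.3%) and 4 with E2 (8%). A 2-fold threshold gave 0 in DPM, 0 for the difference and 0 for the genotypes with E2, and an unadjusted p under 0.01 gave 0 in all 5 tested comparisons. The cause of these moves was not tested, apart from the number of genes that a minimum or threshold itself admits.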
